A study of Mus musculus with 1627 samples.

Results

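Interleukin 1 (IL-1) family receptors are surface proteins that recruit an accessory chain when they bind their cytokine and then signal through MyD88 and the IRAK kinases to NF-kB. The family is checked by a decoy receptor without a signalling domain and by a receptor antagonist that occupies the IL-1 receptor without activating it. In Foxp3-expressing regulatory T cells (Tregs), the interleukin 33 receptor ST2 is known as a marker of populations that settle in non-lymphoid tissue, injured muscle among them.

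The genes described are 6 of the 23725 rows of the count table, taken by name: Il1rl1 encodes ST2, Il1r2 the IL-1 decoy receptor, Il1rn the IL-1 receptor antagonist, Il18r1 and Il18rap the ligand-binding and accessory chains of the interleukin 18 receptor, and Il1r1 the signalling IL-1 receptor. They were followed across muscle library 1 (674 cells) and muscle library 2 (694 cells) of injured muscle, and 1 spleen library (259 cells). All cells came from male B6 Foxp3-Ires-Gfp mice aged 8 months, 4 days after muscle injury with cardiotoxin, a snake toxin that destroys muscle fibres, so the spleen cells also came from injured mice. Cells positive for the T cell receptor beta chain, CD4 and GFP were sorted and profiled with inDrops, in which captured mRNA molecules are labelled and counted by unique molecular identifiers (UMIs). No library of uninjured muscle is in the comparison. The muscle was digested with collagenase and dispase while the spleen was dissociated mechanically, so tissue and preparation cannot be told apart. The labels name no animal, which leaves each tissue as 1 sample: the values below are descriptions of these libraries, without a test, and their 95% intervals cover counting error alone.

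Levels are given as counts of the gene scaled to a common library total (CPM, the usual counts-per-million scale), where 1 UMI was worth 0.652 CPM in muscle library 1, 0.522 CPM in muscle library 2 and 1.02 CPM in spleen. The median cell held 1976, 2488 and 3541 UMIs in these libraries, and the muscle cells were thus shallower, with a median of 19.6, 35.6 and 42.7 mapped reads per UMI. A T cell or Treg identity gene was detected in 670 and 692 of the muscle cells and in 257 of the spleen cells. Foxp3 itself stood at 554 and 552 CPM in muscle, against 368 CPM in spleen. Of 21 genes that define myeloid cells, neutrophils, mast cells, basophils or B cells, 9 were at 0, and a UMI of the others occurred in 15 and 16 muscle cells and in 4 spleen cells. These defining genes include none of 7 NK and CD8 genes, with 75, 136 and 87 UMIs in the 3 libraries. Cd8b1 alone gave 58, 126 and 52 of these UMIs. The defining genes also include none of 8 fibroblast and endothelial genes, with 97, 118 and 118 UMIs. Pecam1 alone gave 96, 112 and 114 of those. A further 4 genes of those lists, Cxcr2, Csf3r, Itgam and Cd79b, reached at least 13 UMIs in every library and were kept apart from the 21 after their values were seen. Muscle library 1 shared 11 cell barcodes with muscle library 2 and 1 with spleen, and leaving those cells out altered no call among the 6 genes.

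In the GENCODE M21 annotation of GRCm38, 5 of the 6 genes lie close together on chromosome 1, all on the plus strand, within 478 kb. Their order is Il1r2 (chr1:40074079-40125231), Il1r1 (chr1:40225080-40317257), Il1rl1 (chr1:40429570-40465415), Il18r1 (chr1:40465552-40500854) and Il18rap (chr1:40515362-40551705). Only 136 bases separate the end of Il1rl1 from the start of Il18r1. Il1rn lies on chromosome 2 (chr2:24336853-24351494). The annotation gives Il1rl1 5 coding transcripts with 5 different 3' ends, the first at position 40441407 and the last at 40465415, so a count per gene cannot separate membrane-bound from soluble ST2.

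Sequence before the start sites is shown for Il1rl1, which has a distal and a proximal RefSeq start, and for the most upstream start of Il1rn, as examples among the genes called higher in muscle. The sequences are from RefSeq on GRCm38.p6, plus strand, and stop before the first annotated exon. Capitals mark matches on either strand to GATAA, a core that GATA factors bind, or to TGANTCA, bound by AP-1.
Il1rl1 distal start, chr1:40429320-40429569: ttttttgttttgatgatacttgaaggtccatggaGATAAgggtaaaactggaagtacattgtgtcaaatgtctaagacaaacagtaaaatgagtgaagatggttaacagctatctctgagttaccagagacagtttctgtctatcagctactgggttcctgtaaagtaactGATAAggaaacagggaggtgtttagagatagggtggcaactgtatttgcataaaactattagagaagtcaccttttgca
Il1rl1 proximal start, chr1:40439379-40439626: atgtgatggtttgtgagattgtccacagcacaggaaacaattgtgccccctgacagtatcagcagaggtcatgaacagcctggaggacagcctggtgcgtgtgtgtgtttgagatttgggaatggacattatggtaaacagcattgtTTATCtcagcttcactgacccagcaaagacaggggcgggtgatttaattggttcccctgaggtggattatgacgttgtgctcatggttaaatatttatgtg
Il1rn upstream start, chr2:24336610-24336852: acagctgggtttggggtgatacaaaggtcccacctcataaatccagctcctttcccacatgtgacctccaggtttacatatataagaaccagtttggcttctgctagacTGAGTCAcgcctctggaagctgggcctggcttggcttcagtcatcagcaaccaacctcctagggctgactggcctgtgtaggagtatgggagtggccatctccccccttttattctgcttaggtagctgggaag
The distal Il1rl1 stretch held 2 GATAA matches and the proximal one 1, while the Il1rn stretch held 1 TGANTCA match. None of the matches overlapped. Of the windows not shown, that of Il1r2, which overlaps annotated exons, and that of Il18rap held 1 GATAA match each, and those of the other Il1rn starts, Il18r1 and Il1r1 held neither motif. Over all 32851 RefSeq windows of the 250 bases before a start, 22.6% held GATAA on either strand and 6.75% held TGANTCA. Such matches describe the letters in these windows and say nothing of binding.

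The first question was how each gene differed between muscle and spleen Tregs. Il1rl1, Il1r2 and Il1rn were higher in both muscle libraries by at least 2-fold, Il18r1 was close to level, and Il18rap and Il1r1 were too sparse for the comparison. Of the 4 that reached a total of 50 UMIs, 3 were thus called higher and 0 lower, whereas of all 7617 genes that reached this minimum 7.47% were called higher and 3.45% lower.

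Il1rl1 was counted 318 and 352 times in the muscle libraries and 21 times in spleen. This came to 207 CPM (185 to 231) and 184 CPM (165 to 204) in muscle, against 21.4 CPM (13.2 to 32.7) in spleen. Both muscle levels lay far above the spleen interval and overlapped each other, with folds of 9.70 (6.24 to 15.9) and 8.59 (5.53 to 14.1) over spleen. Cells thinned to 1000 UMIs each gave folds of 16.7 (5.57 to 81.8) and 15.1 (5.04 to 74.2), on a spleen count of 3 UMIs. Leaving out every cell with any UMI of the other-cell lists, Cxcr2, Csf3r, Itgam and Cd79b included, gave 15.3 and 15.1. That filter kept 372, 274 and 94 cells. Leaving out only cells with a UMI of the 21 defining genes kept 659, 678 and 255 cells and gave 9.52 and 8.46. Among cells without a UMI of a resting gene list (Ccr7, Tcf7, Bach2, Lef1 and Bcl2 among others), the folds were 3.78 (2.34 to 6.49) and 3.06 (1.90 to 5.26). In those cells Il1rl1 stood at 224 and 181 CPM in muscle and at 59.1 CPM in spleen. A resting UMI was present in 27.2% and 28.4% of muscle cells, against 66.0% of spleen cells. These shares are not matched for depth. Cells with a resting UMI were deeper, with medians of 2211, 2905 and 3733 UMIs, against 1896, 2327 and 3102.5 UMIs in cells without one. The 88 spleen cells without a resting UMI held 18 of the 21 spleen Il1rl1 UMIs.

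Il1r2, which binds IL-1 without signalling, had 71 and 107 UMIs in the muscle libraries and 17 in spleen. Its levels were 46.3 CPM (36.2 to 58.4) and 55.8 CPM (45.8 to 67.5) in muscle, against 17.3 CPM (10.1 to 27.7) in spleen, and the muscle and spleen intervals did not overlap. The folds over spleen were 2.68 (1.56 to 4.85) and 3.23 (1.92 to 5.74). The call was the least firm of the 3: thinned cells gave 1.43-fold and 1.94-fold, and equal weight per cell gave 1.89-fold and 2.75-fold. Cells without a resting UMI gave 1.49-fold (0.655 to 3.95) and 1.60-fold (0.717 to 4.19). These values rest on 7 Il1r2 UMIs in 2 of 88 spleen cells, and their intervals include the folds of all cells. An antisense gene, Gm16894, overlaps Il1r2. It had 3, 6 and 1 UMIs in the 3 libraries, and the strand setting of the counting is not given in the sources used here.

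Il1rn, the receptor antagonist, was counted 101 and 95 times in muscle and 8 times in spleen. Its levels were 65.9 CPM (53.7 to 80.0) and 49.6 CPM (40.1 to 60.6) in muscle and 8.14 CPM (3.52 to 16.0) in spleen, so the libraries of the tissues again stood apart. The folds were 8.09 (3.95 to 19.2) and 6.09 (2.97 to 14.5) over spleen. In cells without a resting UMI the fold was 3.62 (1.69 to 9.26) in muscle library 1 and was 1.05 (0.455 to 2.83) in muscle library 2. There, 64 of the 95 Il1rn UMIs lay in cells that held a resting UMI. Thinned cells gave 4.93-fold (1.56 to 25) and 2.89-fold (0.873 to 15), on 3 spleen UMIs.

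Il18r1 had 94 and 111 UMIs in muscle and 45 in spleen. At 61.3 CPM (49.5 to 75.0) and 57.9 CPM (47.6 to 69.7) in muscle, against 45.8 CPM (33.4 to 61.3) in spleen, the 3 intervals overlapped. The folds of 1.34 (0.929 to 1.95) and 1.26 (0.887 to 1.83) leave room for no difference and for one close to 2-fold. Leaving out all cells with any UMI of the other-cell lists, which keeps 372, 274 and 94 cells, gave folds of 1.86 and 2.07. Without only the cells that had a defining marker, the folds were 1.22 and 1.26.

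The partner chain Il18rap was counted 2 times and 1 time in muscle and 0 times in spleen, at or under the floor of 3 counts that a count of 0 allows, and no fold is given. Il1r1, through which IL-1 signals, had 14 and 16 UMIs in muscle and 2 in spleen, or 9.13 CPM (4.99 to 15.3), 8.35 CPM (4.77 to 13.6) and 2.04 CPM (0.247 to 7.35). Its ratios over spleen were 4.49 (1.03 to 40.7) and 4.10 (0.964 to 36.8), both with wide intervals, and over the alternatives they ran from 2.0 to 6.41 and from 1.48 to 7.69. With the minimum lowered to 10 UMIs it passed the 2-fold rule as well.

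**Figure D1:**
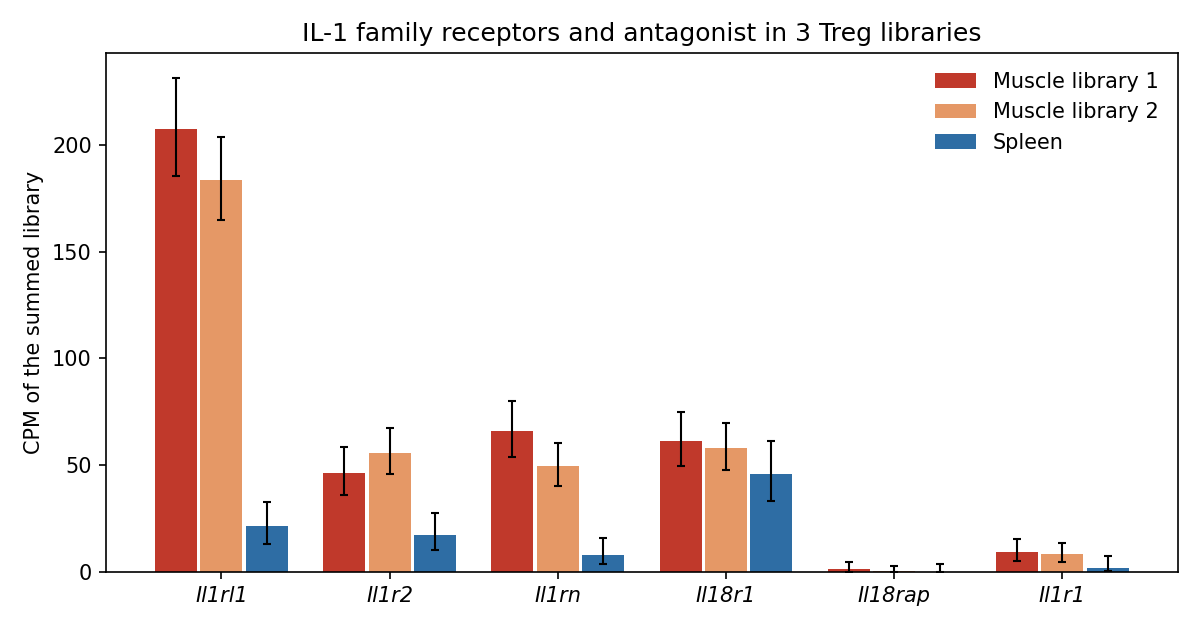
Level of each gene in CPM of the summed library (y axis) in muscle library 1, muscle library 2 and spleen. Bars are library values and whiskers exact 95% Poisson intervals. Il1rl1 stands at 207 and 184 CPM in muscle, against 21.4 CPM in spleen, whereas the 3 Il18r1 bars have overlapping whiskers.

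Most rows of the other genes of the family held few UMIs or none in these sorted cells. Of 10 ligands and soluble regulators, 4 had any UMI. Il1a and Il33, whose product is the ligand of ST2, had 0 UMIs in all 3 libraries. Il1b was counted 4, 3 and 0 times, Il18 4, 3 and 1 times, and Il18bp, the soluble IL-18 inhibitor, 3, 1 and 0 times in muscle library 1, muscle library 2 and spleen. Il1f9, an IL-36 ligand, reached 7, 18 and 6 UMIs. The shared accessory chain Il1rap, needed by both ST2 and the IL-1 receptor, had 14 and 12 UMIs in muscle and 8 in spleen. Sigirr, an inhibitory receptor of the family, was measured well at 63.3 and 65.2 CPM in muscle and 52.9 CPM in spleen, with folds of 1.20 and 1.23.

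In the shared signalling machinery no gene passed the 2-fold rule in both muscle libraries. Of 17 genes from Myd88 to the IKK complex, 14 reached the UMI minimum, 0 were called higher and 0 lower. Over all 7617 genes tested 7.47% were called higher and 3.45% lower, so 0 of 14 lies near that share. The median log2 fold of the 14 was 0.02, beside 0.05 over all genes tested. Myd88, the adaptor of these receptors, stood at 60.7 and 62.1 CPM in muscle and 65.1 CPM in spleen. Irak1, a kinase that binds it, was at 400 and 693 CPM in muscle and 470 CPM in spleen, so the muscle libraries lay on either side of the spleen. Chuk, the IKK-alpha kinase, had the widest fold in muscle library 1 at 2.66, but 1.40 in muscle library 2. Around the chromosome 1 group, 23 further genes are annotated within 500 kb. Of these 12 had a row, 2 reached the minimum and 0 were called. These 2 were Rnf149, with folds of 1.37 and 1.12, and Map4k4, a kinase gene, with folds of 1.09 and 0.910.

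The next question was how the UMIs of each gene were spread over cells. For Il1rl1 the share of cells with a UMI differed more than the UMIs per positive cell. A UMI was found in 150 of 674 and 154 of 694 muscle cells, or 22.3% (19.2 to 25.6) and 22.2% (19.2 to 25.5). In spleen it was found in 11 of 259 cells, or 4.25% (2.14 to 7.47). The muscle shares were 5.24 and 5.22 times the spleen share, although muscle cells were shallower. Il1rl1-positive cells averaged 2.12 and 2.29 UMIs in muscle and 1.91 in spleen. At counts this low, more transcript per cell also raises the share of cells with a UMI. These values thus cannot separate more cells with the transcript from more transcript per cell. Thinned to 1000 UMIs per cell, the shares were 13.3% (10.8 to 16.1) of 648 cells and 11.9% (9.61 to 14.6) of 687 cells in muscle, and 1.16% (0.240 to 3.35) of 259 cells in spleen. The thinned spleen share rests on 3 cells, and a second draw (seed 2) gave 15.1% and 12.8% in muscle and 2.70% in spleen. This thinning left out 26 and 7 muscle cells and 0 spleen cells.

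Detection was more frequent in deeper muscle cells. With the cells of each library cut into 5 depth strata, the shallowest stratum of muscle library 1 had an Il1rl1 UMI in 17 of 136 cells, and the deepest in 42 of 135. In muscle library 2 the same counts were 13 of 139 and 43 of 139. The increase was not steady, with 17, 31, 22, 38 and 42 cells in order of depth in muscle library 1, and the spleen strata had 1, 4, 1, 1 and 4 cells. A cell without a UMI is not shown to lack the transcript. No cell type without these genes was in the sort, so the share that free RNA adds was not tested.

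Il18r1 was detected about as often in each library, in 9.79% (7.65 to 12.3) and 10.2% (8.08 to 12.7) of muscle cells and 9.65% (6.34 to 13.9) of spleen cells. Thinned, these were 4.94% (3.40 to 6.90), 5.82% (4.19 to 7.84) and 4.25% (2.14 to 7.47), and the intervals overlapped throughout. Il1r2 was found in 5.04% (3.52 to 6.98) and 6.20% (4.52 to 8.26) of muscle cells and 2.32% (0.855 to 4.97) of spleen cells. After thinning, 2.78% (1.65 to 4.35) and 3.35% (2.13 to 4.98) of muscle cells and 1.54% (0.422 to 3.91) of spleen cells were left with an Il1r2 UMI, with overlapping intervals. Il1r1 was seen in 9 and 16 muscle cells and in 2 spleen cells. Il18rap was seen in 2 and 1 muscle cells and in 0 of 259 spleen cells, which allows a share of up to 1.16% of cells with a UMI by the floor of 3 counts and 1.41% by the exact binomial limit.

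**Figure D2:**
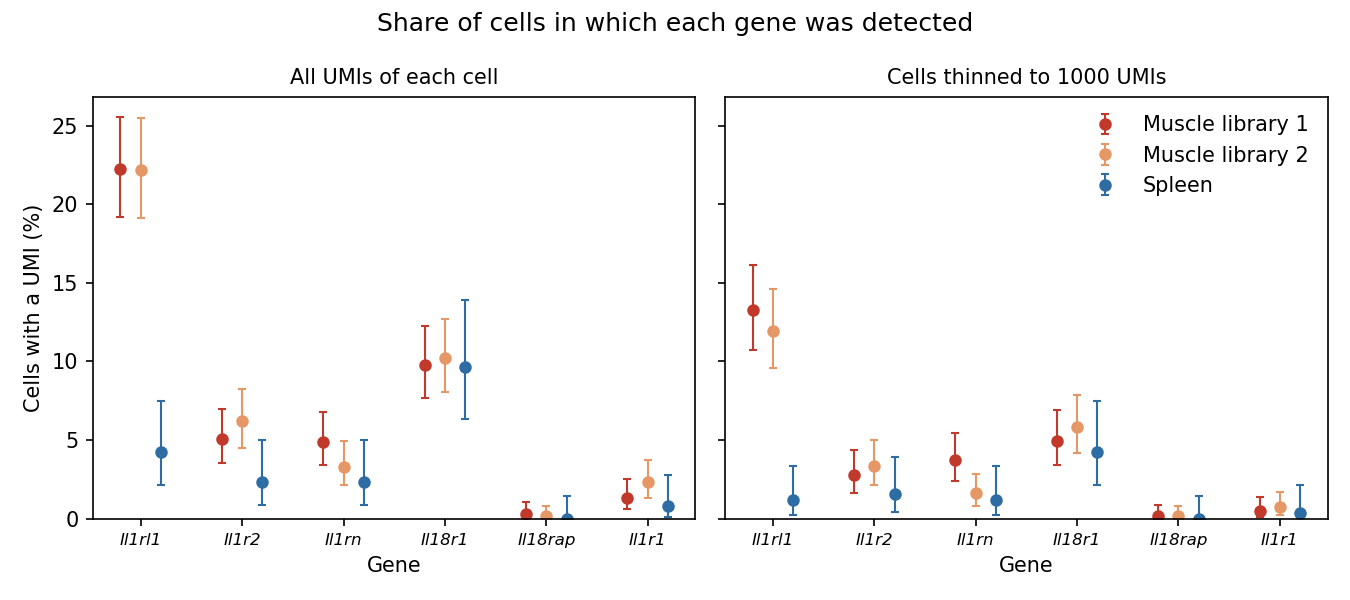
Share of cells with at least 1 UMI of each gene (y axis, percent) in the muscle libraries and spleen, with all UMIs (left) and with each cell thinned to 1000 UMIs (right). Points are library shares and whiskers exact 95% binomial intervals. Il1rl1 stays apart between the tissues on both sides, at 13.3% and 11.9% against 1.16% after thinning, while the other genes' thinned intervals overlap.

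Il1rn behaved otherwise, being concentrated in few cells. A UMI was found in 33 and 23 muscle cells, or 4.90% (3.39 to 6.81) and 3.31% (2.11 to 4.93), and in 6 spleen cells, or 2.32% (0.855 to 4.97), with overlapping intervals. Positive cells averaged 3.06 and 4.13 UMIs in muscle, against 1.33 in spleen, a ratio of 2.30 and 3.10. The single richest cell held 18 and 27 Il1rn UMIs in the muscle libraries, and the 3 richest held 42.6% and 60.0% of each library's Il1rn UMIs. No spleen cell had more than 2. The 9 muscle cells with at least 5 Il1rn UMIs all had Foxp3 UMIs, 0 had a defining marker of another cell type, and their totals ran from 2388 to 6317 UMIs. Without the richest cell of each library, spleen included, Il1rn stood at 54.1 and 35.5 CPM in muscle and 6.11 CPM in spleen. The folds were then 8.83 and 5.80. The cell left out of spleen held 2 of its 8 Il1rn UMIs. These folds thus cannot show how far the difference rests on a few muscle cells.

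Il1r2 also had a tail of rich cells, though in both tissues. Muscle cells with at least 5 UMIs numbered 4 and 8 and held 40.8% and 45.8% of the Il1r2 UMIs, and 1 spleen cell held 29.4%. Of the 8 such cells in muscle library 2, 2 exceeded 3 times the median depth and 2 carried a defining marker of another cell type. Over all muscle cells those defining markers were seen in 5.88% and 6.98% of Il1r2-positive cells, against 2.03% and 2.0% of Il1r2-negative cells. The positive cells were also deeper, with medians of 3036 and 3407 UMIs against 1944 and 2467. The Il1r2 call was the same without the cells that had such a marker. Il1rl1-rich cells were more numerous: 15 muscle cells in each library had at least 5 UMIs and held 27.4% and 27% of the Il1rl1 UMIs.

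**Figure D3:**
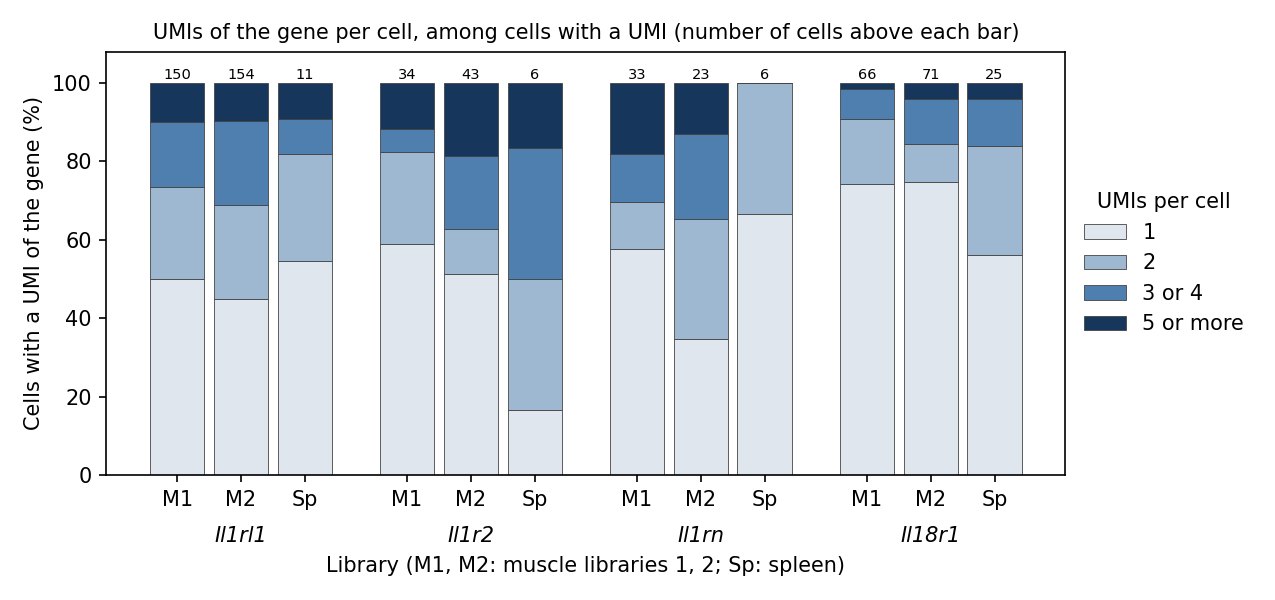
Cells with a UMI of each gene, split by how many UMIs of it they held (y axis, percent of those cells). Bars are muscle library 1 (M1), muscle library 2 (M2) and spleen (Sp), with the number of cells above each. Il1rn cells with 5 or more UMIs number 6 and 3 in muscle and 0 in spleen, and most Il18r1 cells hold 1 UMI.

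Detection of the 6 genes in the same cells came next. At least 1 of them was seen in 251 of 674 and 264 of 694 muscle cells, or 37.2% and 38.0%, against 45 of 259 spleen cells, or 17.4%. Most of those cells showed a single gene: 41 of the 251, 41 of the 264 and 4 of the 45 had 2 or more. No cell had more than 3. Observed double-positive cells were set against the number expected from the shares of each gene within 5 depth strata of a library, over all 15 pairs.

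Il1rl1 with Il1r2 was seen in 7 and 11 muscle cells, where 9.0 and 11.3 were expected. With Il1rn it was seen in 7 and 8 cells, where 8.7 and 6.4 were expected. Neither pair departed from expectation beyond its counting interval. With Il18r1 there were 9 and 12 cells, against 15.5 and 15.9 expected, below expectation in both libraries. The ratio over both was 0.668 (0.413 to 1.02), and its interval reaches 1. The levels were 40.4 and 32.4 CPM of Il18r1 in Il1rl1-positive cells, against 68.6 and 66.8 CPM in Il1rl1-negative cells. They count the same UMIs in the same cells and are no separate support.

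Il1r2 and Il1rn were the pair on which the muscle libraries split. Both were found in 9 cells of muscle library 1, where 2.8 were expected, a ratio of 3.23 (1.48 to 6.13). In muscle library 2 they were found in 0 cells, where 2.2 were expected, a ratio of 0 with an upper limit of 1.64. Over both libraries the ratio was 1.79 (0.818 to 3.40). Leaving out cells with shared barcodes gave 8 cells against 4.9 expected. Il1r2 with Il18r1 occurred in 4 and 4 cells, against 3.8 and 4.8 expected, and Il1rn with Il18r1 in 4 and 4 cells, against 3.7 and 2.4 expected. Il1r1 and Il18rap added few cells: Il1rl1 with Il1r1 occurred in 2 and 5 muscle cells, where 2.5 and 4.3 were expected, and Il18r1 with its partner chain Il18rap in 0. The 259 spleen cells gave at most 1 cell for any pair.

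**Figure D4:**
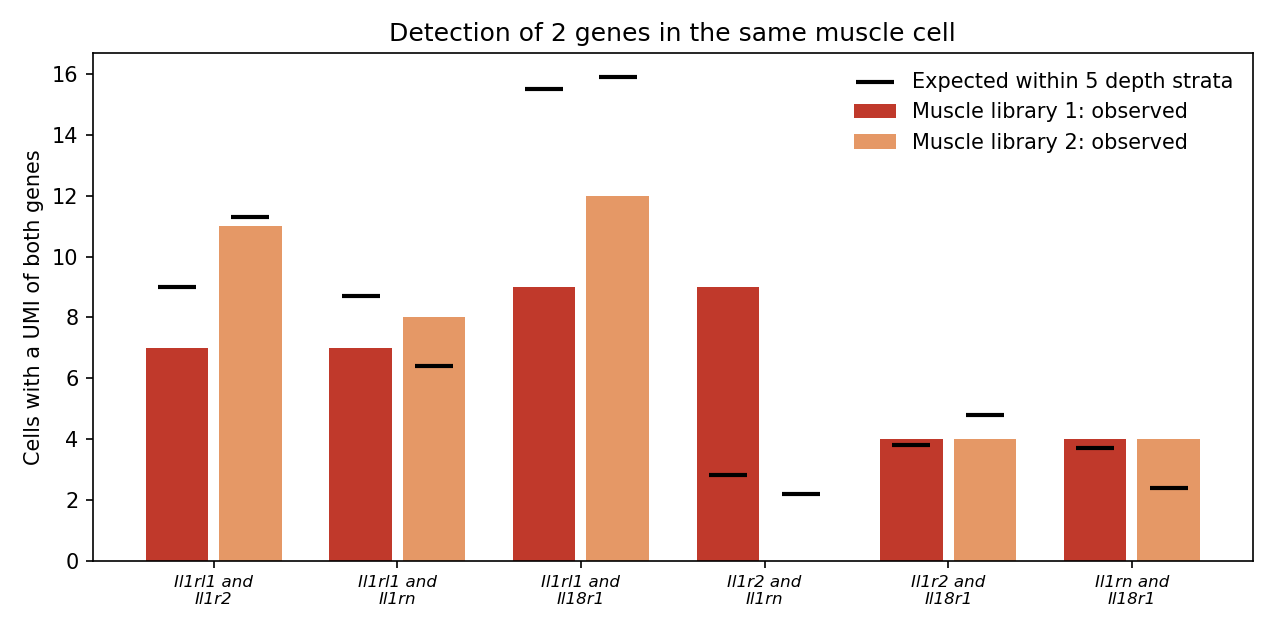
Number of muscle cells with a UMI of both genes of a pair (y axis), for muscle libraries 1 and 2. Bars are observed cells and black marks the number expected from both genes' shares within 5 depth strata. Il1rl1 with Il18r1 lies below the marks in both libraries, and Il1r2 with Il1rn lies above in library 1 (9 against 2.8) and at 0 in library 2.

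What else set Il1rl1-positive muscle cells apart was read from CPM of their summed UMIs over those of Il1rl1-negative cells of the same library. The positive cells were deeper, with medians of 2264 and 2876 UMIs against 1915 and 2360. A gene was called when it differed by at least 1.5-fold the same way in both libraries. Of 6929 genes with at least 50 muscle UMIs, Il1rl1 left out, 2.31% were called higher and 3.90% lower. Each library alone called 828 and 799 genes higher, so the 160 shared ones are 19.3% and 20.0% of these lists. Among the other 3 members tested, 0 were called higher and 1, Il18r1, lower, with folds of 0.589 (0.321 to 1.02) and 0.485 (0.266 to 0.829). Il1r2 was at 0.417-fold and 1.28-fold and Il1rn at 0.501-fold and 1.14-fold, in opposite directions in the libraries.

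Of 11 genes known from tissue Tregs that were tested, 2 were called higher, 1 lower and 8 neither; the list's median log2 fold was 0.27, beside -0.03 over all genes. Pparg, a nuclear receptor of tissue Tregs, was at 35.4 and 26.3 CPM in Il1rl1-positive cells, against 8.79 and 12.6 CPM in Il1rl1-negative cells, though it rests on 24 and 31 UMIs. Ccr8, a chemokine receptor, was at 70.7 and 38.5 CPM, against 20.2 and 20.4 CPM in Il1rl1-negative cells. The folds were 4.02 (1.66 to 10.1) and 2.08 (0.937 to 4.49) for Pparg. For Ccr8 they were 3.50 (1.94 to 6.36) and 1.89 (0.9997 to 3.48). Both intervals of muscle library 2 include 1. Il10, a suppressive cytokine, was lower, at 96.0 and 89.1 CPM against 167 and 144 CPM.

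Gata3 and Klrg1 passed 1.5-fold in muscle library 1 and came close to it in muscle library 2. Gata3, the transcription factor of type 2 immunity, was at 808 and 494 CPM in Il1rl1-positive cells, against 411 and 336 CPM in Il1rl1-negative cells, or 1.96-fold (1.70 to 2.27) and 1.47-fold (1.25 to 1.72). Klrg1, an inhibitory receptor, was at 899 and 1182 CPM, against 527 and 795 CPM, or 1.71-fold (1.49 to 1.95) and 1.49-fold (1.34 to 1.64). Areg, which encodes the repair factor amphiregulin, differed between the libraries, at 2.08-fold (1.75 to 2.46) in muscle library 1 and 1.19-fold (0.992 to 1.43) in muscle library 2. The 5 Th1-linked genes tested had 0 higher and 2 lower, and their median log2 fold was -0.21. Lower were Cxcr3, a chemokine receptor, at 0.50-fold and 0.635-fold, and Nkg7, a granule protein gene, on 52 and 29 UMIs. Nkg7 was at 0.601-fold (0.258 to 1.25) and 0.461-fold (0.117 to 1.33), and both intervals include 1. Of 9 T cell and Treg identity genes 0 were called, and Foxp3 was at 553 and 549 CPM in Il1rl1-positive cells, against 555 and 553 CPM in Il1rl1-negative cells. The 14 signalling genes tested had 0 higher and 1 lower, Irak4, on 30 and 54 UMIs.

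**Figure D5:**
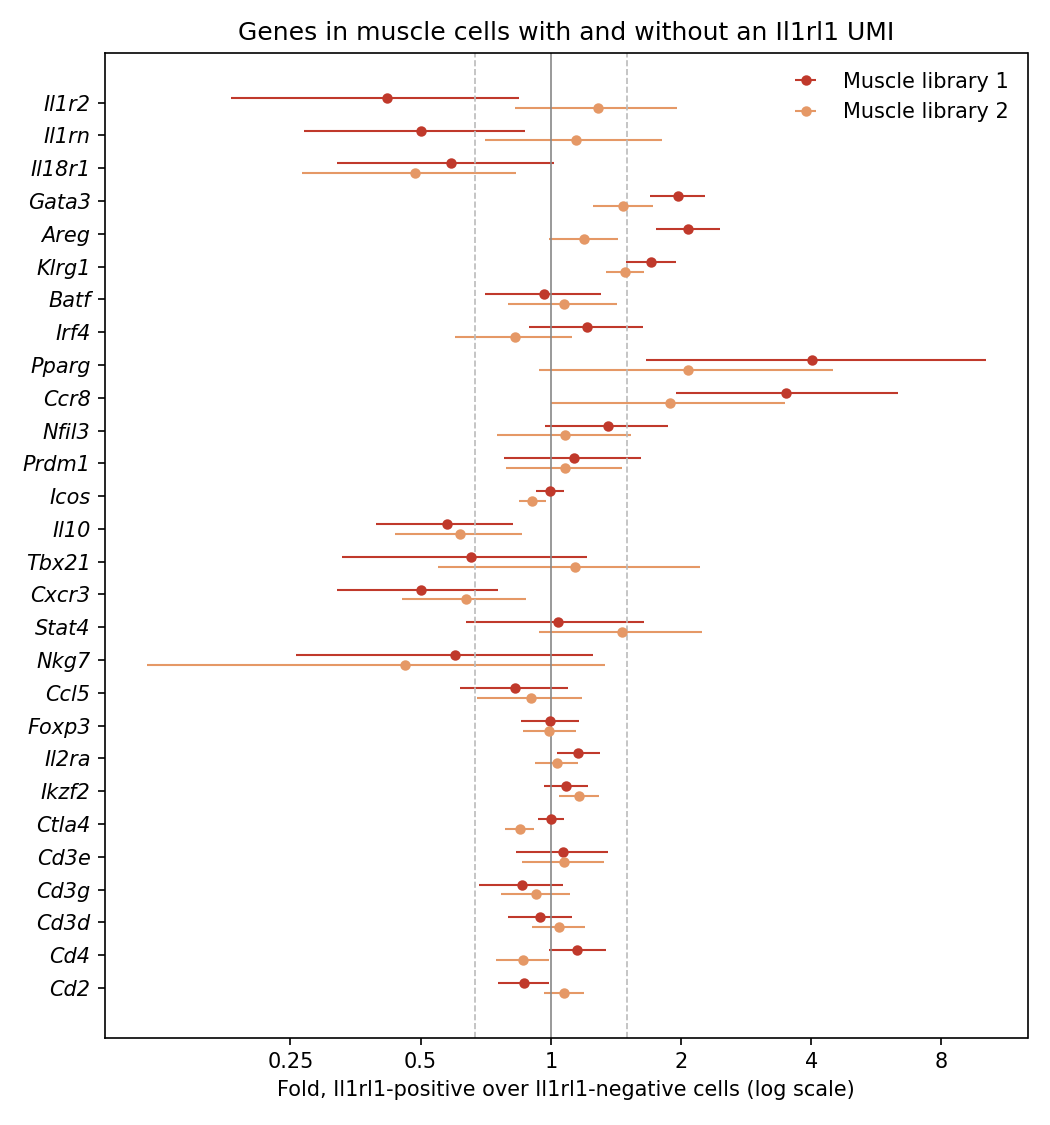
Fold of Il1rl1-positive over Il1rl1-negative muscle cells (x axis, log scale) for the other members and the tested genes of the tissue Treg, Th1-linked and identity lists, in both muscle libraries. Points are folds, whiskers exact 95% intervals, dashed lines the 1.5-fold limits. Pparg and Ccr8 lie beyond the upper line in both libraries, Il18r1, Il10, Cxcr3 and Nkg7 beyond the lower one, and Foxp3 at 1.

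The same split by the other members gave smaller groups of cells and more calls over all genes. Il1r2-positive cells, 34 and 43 in number, had 6.32% of genes called higher and 11.3% lower, and 0 of 3 other members called. Cxcr3 was among the lower genes, at 0.249-fold (0.0671 to 0.649) and 0.484-fold (0.247 to 0.861), as was Il10 at 0.615-fold and 0.507-fold. By list, 2 of 5 Th1-linked genes and 1 of 11 tissue Treg genes tested were called lower, and 0 of either list higher. Of the 14 signalling genes tested, 1 was called higher and 2 lower, and the median log2 fold of these 14 was -0.07, beside -0.13 over all genes. Map3k7, the kinase TAK1 downstream of these receptors, was higher at 2.58-fold and 2.0-fold. Lower were Irak4, a kinase of the receptor complex, with 0 and 2 UMIs in Il1r2-positive cells, and Tollip, an adaptor that restrains IRAK1, with 1 and 2 UMIs.

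Il1rn-positive cells, 33 and 23 in number, had 6.44% of genes called higher and 12.2% lower, and 0 of 3 other members called. They were deeper, with medians of 2513 and 4236 UMIs, against 1945 and 2473 UMIs in Il1rn-negative cells. Il2ra, the IL-2 receptor alpha chain, was at 1617 and 1249 CPM in Il1rn-positive cells, against 884 and 756 CPM in Il1rn-negative cells. Batf, a transcription factor of effector Tregs, was 2.27-fold (1.51 to 3.31) and 2.11-fold (1.33 to 3.23). Pdcd1, the inhibitory receptor PD-1, was 1.80-fold (0.899 to 3.30) and 3.78-fold (2.43 to 5.70), and the first interval includes 1. Cxcr3 was lower here too, at 0.399-fold and 0.392-fold, on 5 UMIs in each library's positive cells. By list, 2 of 11 tissue Treg genes and 1 of 9 identity genes tested were called higher, and 1 of 5 Th1-linked genes lower. Pdcd1 was 1 of 2 genes tested from a list linked to follicular Tregs. Among the 9 tissue Treg genes not called, Klrg1 was at 0.913-fold and 0.992-fold and Gata3 at 0.755-fold and 1.55-fold.

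In Il18r1-positive cells, 66 and 71 in number, 3.29% of genes were called higher and 7.17% lower. Of the 3 other members, Il1rl1 was called lower, at 118 and 98.8 CPM against 218 and 194 CPM in Il18r1-negative cells. That call rests on the same 9 and 12 double-positive cells as the Il18r1 call in Il1rl1-positive cells and is no separate support. Il1rn was called higher, at 130 and 122 CPM against 58.3 and 40.5 CPM. The Il1rn value rests on 4 double-positive cells in each library, where 3.7 and 2.4 were expected. In each library 1 of the cells with at least 5 Il1rn UMIs also held Il18r1. Split the other way, Il18r1 was at 0.627-fold (0.167 to 1.66) and 1.55-fold (0.653 to 3.18) in Il1rn-positive cells. Ccr8, called higher in Il1rl1-positive cells, was called lower here, at 0 and 14.1 CPM in Il18r1-positive cells, against 37.2 and 26.4 CPM in Il18r1-negative cells. The positive cells held 0 and 3 Ccr8 UMIs, and the fold of 0.534 in muscle library 2 has an interval from 0.106 to 1.66. Among the 11 tissue Treg genes tested in this split, 0 were called higher and 2 lower.

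Genes with the most similar pattern over cells were ranked by the smaller of their Pearson correlations, in the 674 and 694 muscle cells, of log counts per 10000, among 4929 genes with at least 100 muscle UMIs. All were weak, and the cells share library, depth and the sparse detection of both genes, so they are descriptions alone. For Il1rl1 the leading genes were Klrg1 (r of 0.17 and 0.20), Nfkbia (0.16 and 0.14), Il7r (0.13 and 0.16), Dgat2 (0.16 and 0.13) and Gata3 (0.17 and 0.13). Nfkbia encodes the NF-kB inhibitor IkB-alpha, Il7r the IL-7 receptor and Dgat2 an enzyme of triglyceride synthesis. For Il1rn they were Slc11a2, an iron transporter gene (0.31 and 0.29), Slc15a3, a peptide transporter gene (0.26 and 0.17), and Tnfrsf4, which encodes OX40 (0.16 and 0.16). Slc11a2 stood at 128 and 153 CPM in Il1rn-positive cells, against 25.1 and 26.3 CPM in Il1rn-negative cells. It was level between the tissues, at 32.0 and 32.4 CPM in muscle and 31.5 CPM in spleen. Il1r2 was followed by Uqcr10, Nap1l1 and Eif2b5, and Il18r1 by Hadhb, Dennd5a and Ccr6, with no r above 0.17.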

How the data were processed

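Single Tregs of spleen and injured muscle were profiled with inDrops and sequenced on a NextSeq500, per the labels' protocols. The authors deposited raw UMI counts for 23725 genes in 1627 cells. The genome build mm10 and the tools TopHat2 and SAMtools are named in the submitters' processing notes. How reads were assigned to genes and strands, and how cells were filtered, is not given in the sources used here. Per the labels, cells were assigned to 3 libraries, and no cell was left out (the shallowest had 756 UMIs); no doublet caller was run, and 12, 7 and 0 cells of muscle library 1, muscle library 2 and spleen exceeded 3 times their library's median. Library totals were 1533277, 1916496 and 982570 UMIs.

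Counts of a library's cells were added up and expressed as CPM. Levels carry exact Poisson, shares exact binomial (Clopper-Pearson) and folds exact conditional binomial 95% intervals, which leave out that UMIs cluster within cells. Where a library had 0 UMIs the floor was 3 counts. Calls required 2-fold in both muscle libraries and 50 UMIs, a rule of size and no test. Cells were thinned without replacement to 1000 UMIs (seed 1). Named are the members, genes of 13 lists, neighbours within 500 kb, and the 5 (Il1rl1) or 3 most similar genes. 1 gene of the resting list is not reported here; it counts in the split by that list. The members and lists were chosen with earlier results of these data known. The calling rule was tested on simulated Poisson library counts, co-detection on independent genes and the similarity ranking on a planted gene. The simulated library counts held no clustering of UMIs within cells and no variation between muscle libraries beyond counting. The calls were thus not tested against either. Alternatives covered scaling (edgeR 4.0.16 TMM and DESeq2 1.42.0 factors only), minimum, fold, cells kept, thinning and strata. Software was R 4.3.3 and Python 3.11.15 with scipy 1.17.1, numpy 2.4.6, matplotlib 3.10.9 and pandas 2.3.3.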

Additional observations from a re-analysis of the deposited data

How the results depend on the processing

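Of 17 alternatives to the count of 3 members called higher, 16 gave between 2 and 4. Cells with no resting UMI gave 1, Il1rl1. Il1r2 was no longer called with thinned cells, equal weight per cell or a 3-fold rule, and a minimum of 200 UMIs left it untested. Of 110 alternative folds of the members 98 stayed inside the interval first given and 12 moved; the range was 3.78 to 16.7 and 3.06 to 15.1 for Il1rl1, and 1.19 to 1.86 and 1.13 to 2.07 for Il18r1. Thinned shares stayed inside their first interval in 33 of 36 alternatives. The cause of these shifts was not tested.

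Co-detection ratios moved in 4 of 48 alternatives. Thinned cells gave 0.390 for Il1rl1 with Il1r2 and 0.548 for Il1rn with Il18r1, on 2 cells and 1 cell. Without cells holding any UMI of the other-cell lists, Il1r2 with Il18r1 had a ratio of 2.06. With 1 muscle library left out the ratio of Il1r2 with Il1rn ran from 0 to 3.23; the other 5 pairs ran from 0.580 to 1.65 over their own ranges.

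Genes called in Il1rl1-positive cells, 160 higher and 270 lower, fell to 32 and 67 at 2-fold and to 15 and 39 with a minimum of 200 UMIs. Cells with 2 or more Il1rl1 UMIs gave 231 and 483. A single muscle library gave 799 to 828 higher and 1113 to 1170 lower, since the same direction in both was no longer asked. Il1r1 and Il18rap had 32 and 3 UMIs over all libraries, so their levels have wide counting intervals. The alternatives without defining markers, shared barcodes or the richest cells were chosen after seeing the data. No paired analysis was possible because the labels name no animal and no result comes from a test.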
